A study of Mus musculus with 19 samples.

Results

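Ribosome biogenesis factors are the proteins that build ribosomes without becoming part of them. A list of 40 such genes was followed across mouse CD8 T lymphocytes in 6 states. Of the 40, 38 had a probe set assigned to them alone and were measured, among 19938 genes measured in this way. Where a gene had several probe sets the brightest was used. Noc2l had no probe set of its own, and the single probe set for Ppan also carried another gene. By role the 38 comprised 6 nucleolar core proteins, 3 RNA polymerase I subunits, 4 proteins of box C/D particles, 4 proteins of the box H/ACA particle, 11 small-subunit factors and 10 large-subunit factors.

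The study used Affymetrix arrays, 1 per RNA sample, on purified CD8 T cells. Stat5ca is a constitutively active version of Stat5, a transcription factor downstream of cytokine receptors, introduced by transduction into T cells during activation. The first group, T-BetKO Stat5ca cells recovered after transfer (3 arrays), lacked the T-box factor T-bet. The series text names them TCRP1A cells, while their sample labels give T-BetKO as the genotype. They had been stimulated with anti-CD3/CD28, transduced and placed in congenic hosts, and were taken from spleen and lymph nodes on days 14, 14 and 54. Stat5ca cells after transfer (4 arrays, day 20) and control cells after transfer (2 arrays, days 18 and 120) were TCRP1A cells activated for 72 h with their antigen before injection. Stat5ca cells at 72 h (2 arrays, labelled GFP+) and control cells at 72 h (4 arrays) were TCRP1A cells studied at the end of that activation, and naive TCRP1A cells (4 arrays) were not activated. All TCRP1A cells came from Rag-1-/- mice that carry a single transgenic T-cell receptor, on the B10.D2 background. The labels name no transduction for the control cells, so the effect of Stat5ca cannot be told apart from that of transduction itself. T-BetKO cells were labelled strain C57BL/6 beside a B10.D2 background. They also carried a different labelling protocol for the RNA and had another stimulus. None of these can be told apart from the genotype. The groups of transferred cells share no day of recovery. Between them, the day cannot be told apart from the genotype or from Stat5ca. The series text dates the recovery of TCRP1A cells to more than 20 days, whereas the labels give days 18, 20 and 120.

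Ribosomes are assembled mostly in the nucleolus. RNA polymerase I transcribes a long precursor RNA, small guide RNAs in box C/D and box H/ACA particles direct its methylation and pseudouridylation, and separate sets of factors then cut and fold the parts that become the small and the large subunit. In T cells the programme is known to be switched on when a resting cell is stimulated, grows and divides, and the transcription factor Myc is a well-known activator of many of its genes.

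The members share no rule on sequence, so their promoters were searched for short motifs. In RefSeq promoter windows of GRCm38.p6, which run from 250 bases before to 50 bases after a gene's start, 33 of the 38 genes had an entry, and Npm1, Fbl, Rrp12, Bop1 and Rrs1 were not matched. Both strands were searched and motifs were allowed to overlap. CACGTG, the E-box that Myc and its relatives bind, was found in 7 of 33 windows (21.2%), against 8.09% of the windows of all 27025 genes and 9.5% of those of 15614 genes measured on the array. TTCNNNGAA, the palindrome bound by STAT factors, was found in 3 of 33 (9.09%), against 9.55% of all windows and 8.99% of those on the array. The 3 further motifs were chosen with counts already in view. CCGGAAG, the core bound by ETS factors, was in 12 of 33 windows (36.4%, against 9.93% and 13.6%), the NRF1 palindrome was in 7 (21.2%, against 5.19% and 7.85%), and TATAAA was in 2 (6.06%, against 15.7% and 13.6%). The stretches from position -100 to -1 of 6 genes are shown as examples of these motifs in members described in the following paragraphs. Nop2 (chr6:125131783-125131882, plus strand) and Utp18 (chr11:93885767-93885866, minus strand) carry the E-box, Nop58 (chr1:59684906-59685005, plus strand) and Polr1b (chr2:129100896-129100995, plus strand) the STAT palindrome, and Nhp2 (chr11:51619673-51619772, plus strand) and Nolc1 (chr19:46075747-46075846, plus strand) the ETS core. Each is written 5′ to 3′ along the gene, and capitals mark CACGTG, TTCNNNGAA or CCGGAAG, read on either strand.
Nop2: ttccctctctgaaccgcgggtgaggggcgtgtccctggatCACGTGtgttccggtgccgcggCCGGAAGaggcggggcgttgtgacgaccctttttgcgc
Utp18: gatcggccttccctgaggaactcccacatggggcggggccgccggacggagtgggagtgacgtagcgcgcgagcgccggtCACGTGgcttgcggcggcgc
Nop58: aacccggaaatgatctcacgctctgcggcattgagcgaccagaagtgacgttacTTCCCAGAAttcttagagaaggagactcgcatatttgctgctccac
Polr1b: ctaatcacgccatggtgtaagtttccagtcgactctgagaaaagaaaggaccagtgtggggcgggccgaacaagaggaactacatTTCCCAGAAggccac
Nhp2: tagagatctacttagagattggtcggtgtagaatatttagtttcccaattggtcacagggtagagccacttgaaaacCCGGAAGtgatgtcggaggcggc
Nolc1: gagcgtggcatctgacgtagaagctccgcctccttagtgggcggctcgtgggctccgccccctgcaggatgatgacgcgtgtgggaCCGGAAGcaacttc
These letters describe the windows only. No array in the study measured binding to them.

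Levels are given as the deposited log2 signal, on which a difference of 1 is a change in signal by a factor of 2. Levels of different genes come from different probe sets and are not compared. As a guide to background, 1190 genes of smell and pheromone receptors were taken, whose 95th percentile was 7.3. Of the 38 members, 37 averaged above it in every group. The exception was Rrs1. Group means of the members ran between 7.10 and 12.55.

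The labels were first checked against the genes they concern. Stat5a was at 11.54 to 11.81 in Stat5ca cells after transfer, against 10.03 and 10.46 in control cells after transfer, and at 12 and 12.12 in Stat5ca cells at 72 h, against 10.50 to 10.59 in control cells at 72 h. T-BetKO Stat5ca cells had Stat5a at 10.86 to 11.06, below the Stat5ca cells. Tbx21, the gene of T-bet, was at 8.18 to 8.34 in T-BetKO Stat5ca cells, against 11.77 to 11.97 in Stat5ca cells after transfer. Of 13 T-cell identity genes, 11 were measured and all 11 were above background in every group. The 20 myeloid marker genes averaged 10.69 to 12.26 per array in T-BetKO Stat5ca cells, 9.78 to 10.63 in Stat5ca cells after transfer, 12.25 and 12.41 in control cells after transfer, 7.18 and 7.21 in Stat5ca cells at 72 h, 8.34 to 9.05 in control cells at 72 h and 8.10 to 11.80 in naive cells. In bulk RNA of this kind, fewer cells of a type and less RNA per cell cannot be told apart. No label ties an array to its own animal or culture, and the p-values therefore rest on array-to-array spread that may be technical.

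Most of the factors were highest in Stat5ca cells recovered after transfer. That group had the highest mean for 32 of 38 members (84.2%), against 12.6% of all genes. The other 6 members were Fbl, highest in T-BetKO Stat5ca cells, Npm1, Polr1c and Wdr12, highest in control cells at 72 h, and Polr1a and Utp20, highest in naive cells. Averaged over the 38 members, the 4 Stat5ca arrays after transfer stood at 10.34 to 10.44, against 10.03, 9.92 and 10.14 for T-BetKO arrays 39, 40 and 41, 9.83 and 9.85 for control cells after transfer, 9.80 and 9.75 for Stat5ca cells at 72 h, 9.72 to 10.11 for control cells at 72 h and 9.81 to 10.19 for naive cells. Array numbers are those of the labels. The Stat5ca arrays did not overlap any other group in this average. For 17 members each of the 4 Stat5ca arrays was above all 15 other arrays, which was so for 2.24% of all genes. Among TCRP1A arrays only, they were above the other 12 for 20 members (3.38%). Stat5ca cells at 72 h had the lowest mean for 17 members (44.7%, against 13.3% of all genes). Control cells after transfer had it for 13 members (34.2%), close to the 28.9% of all genes. Control cells at 72 h had it for 5 (13.2%, against 23.4%). Naive cells had it for Ncl and Npm1 (5.3%, against 9.67%) and T-BetKO Stat5ca cells for Nop10 (2.6%, against 15.1%).

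**Figure D1:**
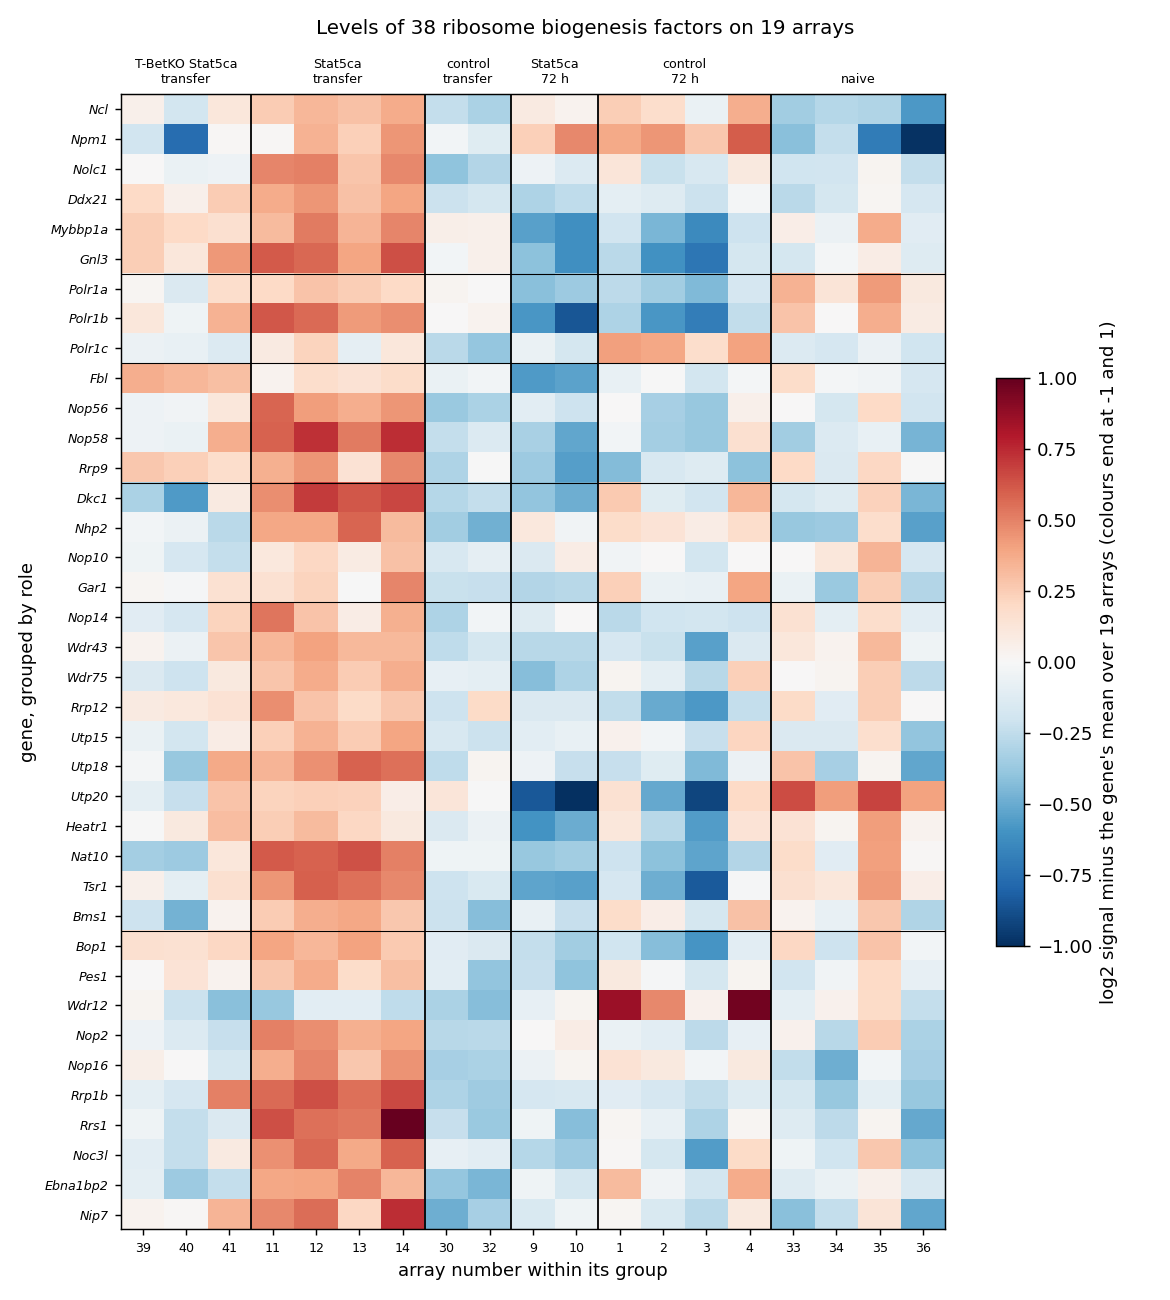
Level of each of the 38 measured factors (rows, grouped by role) on each of the 19 arrays (columns, labelled with array numbers, under the name of their group). Colour gives the log2 signal minus that gene's mean over all 19 arrays and is clipped at -1 and 1. The 4 columns of Stat5ca cells after transfer are red for nearly all genes, Wdr12 is highest in control cells at 72 h, and Utp20 is highest in naive cells.

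Against control cells after transfer, 28 of 38 factors rose in Stat5ca cells after transfer and 0 fell (limma, Benjamini-Hochberg adjusted p under 0.05 over all genes), a comparison in which 16.9% of all 19938 genes rose and 8.46% fell, 25.4% together. All 38 differences were positive. Their median was 0.55 on the log2 scale, against a median of 0.08 over all genes, and among the 37 members above background in every group the range was 0.13 for Utp20 to 0.94 for Rrp1b. For 35 of 38 members every Stat5ca array was above both control arrays, which held for 35% of all genes.

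Among the nucleolar core proteins 4 of 6 rose. Nolc1, a chaperone of small nucleolar particles, was at 10.82, 10.83, 10.61 and 10.81 in Stat5ca cells, against 9.93 and 10.04 in control cells, a difference of 0.79 ± 0.11 (SE, adjusted p = 0.000248). Nucleolin, Ncl, an abundant RNA-binding protein of the nucleolus, was at 12.49 to 12.61 in Stat5ca cells, against 12 and 11.92 in control cells (0.59 ± 0.11, adjusted p = 0.00133). The groups did not overlap for either gene. The RNA helicase Ddx21 rose by 0.58 ± 0.09, and Gnl3, the GTPase nucleostemin, by 0.55 ± 0.14. The nucleophosmin gene Npm1 (0.33 ± 0.17, adjusted p = 0.191) and Mybbp1a, a repressor of polymerase I transcription (0.36 ± 0.14, adjusted p = 0.0678), did not pass the test.

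Both the second-largest subunit of polymerase I, Polr1b, and Polr1c, a subunit that polymerases I and III share, rose. Polr1b was at 10.69, 10.63, 10.49 and 10.53 in Stat5ca cells, against 10.07 and 10.10 in control cells (0.50 ± 0.13, adjusted p = 0.0138). Polr1c differed by 0.41 ± 0.10 (adjusted p = 0.0058). The largest subunit, Polr1a, differed by 0.21 ± 0.10 and was not called (adjusted p = 0.136).

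Of the 4 box C/D proteins, 3 rose. Nop58, a core protein of these particles, was at 10.47, 10.61, 10.40 and 10.62 in Stat5ca cells, against 9.64 and 9.74 in control cells (0.83 ± 0.15, adjusted p = 0.000956). Its partner Nop56 was at 12.05 to 12.27 in Stat5ca cells, against 11.32 and 11.37 in control cells (0.80 ± 0.13). Rrp9, which belongs to the U3 particle, rose by 0.51 ± 0.14. Fibrillarin, Fbl, the methyltransferase of the same particles, was at 10.96 to 11.11 in Stat5ca cells, against 10.86 and 10.90 in control cells. Its arrays also did not overlap, but the difference of 0.19 ± 0.09 did not pass (adjusted p = 0.17). A second Fbl probe set had means of 10.56 in Stat5ca cells and 10.30 in control cells.

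In the box H/ACA particle 2 of 4 proteins rose. Dkc1, the pseudouridine synthase, was at 10.26, 10.50, 10.42 and 10.47 in Stat5ca cells, against 9.51 and 9.56 in control cells (0.88 ± 0.17, adjusted p = 0.00177). Nhp2, its RNA-binding partner, was at 9.92 to 10.19 in Stat5ca cells, against 9.26 and 9.13 in control cells (0.83 ± 0.15, adjusted p = 0.00106). The other two proteins of the particle, Gar1 (0.44 ± 0.17, adjusted p = 0.073) and Nop10 (0.29 ± 0.12, adjusted p = 0.0924), were not called, although all Stat5ca arrays lay above both controls for each.

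Small-subunit factors rose in 8 of 11 cases. The largest differences were those of Tsr1, which acts late in small-subunit maturation (0.70 ± 0.17), the GTPase Bms1 (0.64 ± 0.14) and the RNA acetyltransferase Nat10 (0.62 ± 0.12). Nat10 was at 10.66 to 10.80 in Stat5ca cells, against 10.12 on both control arrays (adjusted p = 0.00189). Wdr43, Wdr75, Utp15 and Utp18, components of the early small-subunit processome, rose by 0.56 ± 0.11, 0.40 ± 0.13, 0.50 ± 0.13 and 0.59 ± 0.18, and Nop14 rose by 0.48 ± 0.12. Utp20 (0.13 ± 0.23), Rrp12 (0.31 ± 0.14) and Heatr1 (0.32 ± 0.17) were not called. Utp20 and Rrp12 overlapped between the groups.

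Large-subunit factors rose in 9 of 10 cases. Rrs1, which helps to join the 5S particle to the large subunit, was at 8.05, 7.95, 7.93 and 8.40 in Stat5ca cells, against 7.17 and 7.03 in control cells (0.98 ± 0.16, adjusted p = 0.000657). Both control arrays were under the background guide for Rrs1, so this difference has only a bound, and counted from that level Rrs1 was at least 1.72-fold higher (0.78 on the log2 scale). Rrp1b was at 10.08, 10.16, 10.07 and 10.18 in Stat5ca cells, against 9.21 and 9.16 in control cells (0.94 ± 0.09, adjusted p = 1.17e-05). It had the smallest p of the members. Nip7 was at 9.29, 9.37, 9.02 and 9.55 in Stat5ca cells, against 8.32 and 8.48 in control cells (0.91 ± 0.17). Ebna1bp2 rose by 0.82 ± 0.13, Nop16 by 0.72 ± 0.11, the RNA methyltransferase Nop2 by 0.70 ± 0.13 and Noc3l by 0.59 ± 0.18. The PeBoW complex, which is needed to mature the large-subunit RNA, consists of Pes1, Bop1 and Wdr12. Pes1 rose by 0.53 ± 0.12 and Bop1 by 0.48 ± 0.14. Wdr12 was at 8.97 to 9.24 in Stat5ca cells, against 9.03 and 8.92 in control cells (0.16 ± 0.20, adjusted p = 0.611). A second, dimmer Wdr12 probe set averaged 7.63 in Stat5ca cells and 7.61 in control cells. Whether Wdr12 differed from its partners was not tested.

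**Figure D2:**
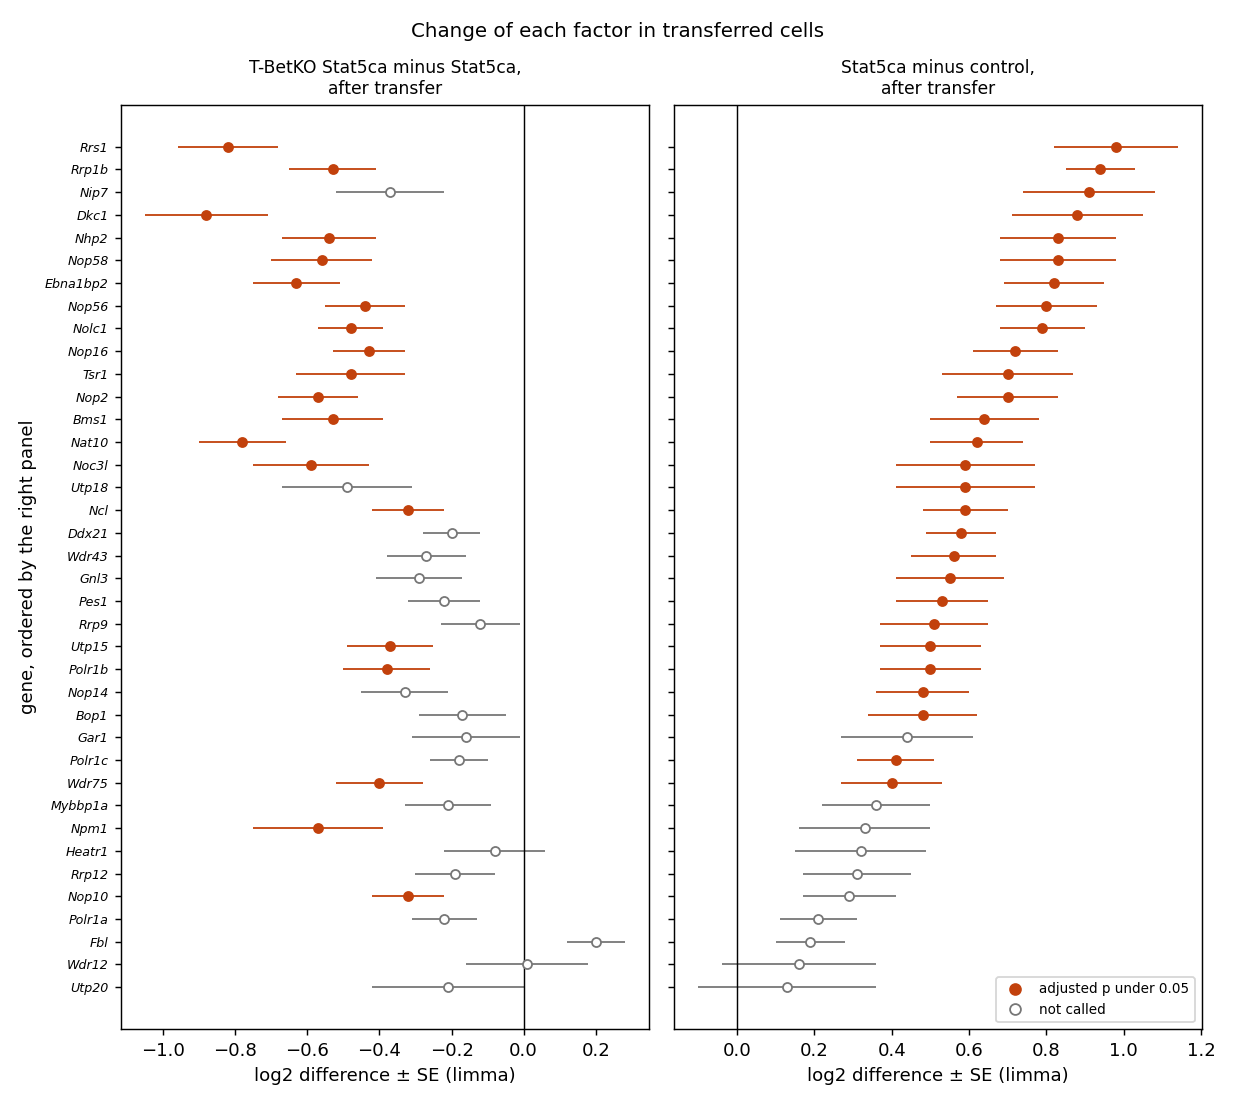
Log2 difference of each factor with its standard error (limma), for T-BetKO Stat5ca minus Stat5ca cells after transfer (left panel) and Stat5ca minus control cells after transfer (right panel). Filled points passed an adjusted p under 0.05 and open points did not. In the right panel all 38 points are above 0 and 28 are filled, and in the left panel 36 are below 0 and 20 are filled. Rrs1 is drawn at its measured values, although both control arrays were under background for it.

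The calls against control cells rested on 2 control arrays. Leaving out control array 30 or control array 32 left 18 members called in each case. Across 16 other settings, 15 of the 28 members were called every time (Ncl, Nolc1, Ddx21, Nop56, Nop58, Dkc1, Nhp2, Wdr43, Nat10, Nop2, Nop16, Rrp1b, Rrs1, Ebna1bp2 and Nip7). The remaining 13 (Gnl3, Polr1b, Polr1c, Rrp9, Nop14, Wdr75, Utp15, Utp18, Tsr1, Bms1, Bop1, Pes1 and Noc3l) lost the call under at least 1 of them. Cell type markers also differed here. The T-cell identity genes averaged 12.19 to 12.25 per array in Stat5ca cells and 11.61 and 11.46 in control cells, and 9 of 11 rose. Their median difference was 0.66, against 0.55 for the members. Of 9 B-cell genes 5 fell. The part of these 2 lists in the members' differences was not tested. All 20 myeloid genes were lower in Stat5ca cells, with a median difference of -2.01, and 5 of 20 fell. With the mean of the myeloid genes as a covariate, 20 members were called and the 8 that lost the call were Polr1b, Rrp9, Nop14, Wdr75, Utp15, Utp18, Bop1 and Noc3l. Sex-linked transcripts also differed between arrays. Eif2s3y, a Y-linked gene, was at 10.44 on Stat5ca array 13 and at 5.0 to 5.16 on the other 3 Stat5ca arrays, against 9.64 and 10.23 in control cells after transfer. Xist, another sex-linked transcript, was at 10.09 on array 13 and at 12.67 to 12.73 on the other 3 Stat5ca arrays. In control cells after transfer it was at 12.22 and 6.45. Averaged over the members, array 13 stood at 10.34 and the controls at 9.83 and 9.85. The part of sex in the members' differences was not tested. With the Eif2s3y level as a covariate, 31 members rose.

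**Figure D3:**
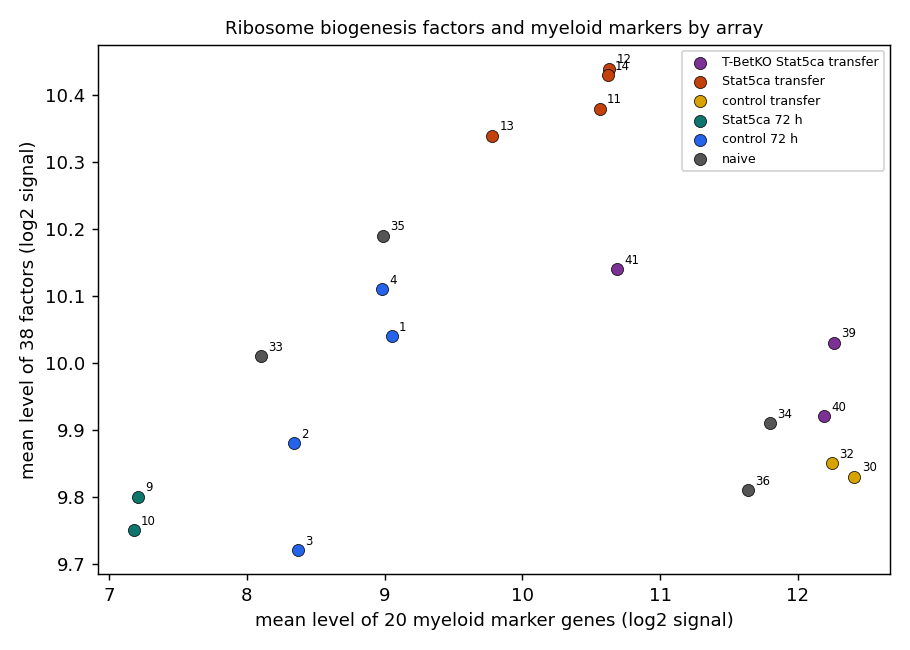
Mean level of the 38 factors (vertical axis, log2 signal) against the mean level of the 20 myeloid marker genes (horizontal axis, log2 signal) on each of the 19 arrays, numbered and coloured by group. The 4 Stat5ca arrays after transfer lie above all other arrays at myeloid levels of 9.78 to 10.63. Control arrays after transfer lie at 12.25 and 12.41. T-BetKO arrays 39, 40 and 41 lie at 12.26, 12.19 and 10.69. The cause of the pattern was not tested.

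In T-BetKO Stat5ca cells, 20 of 38 factors fell and 0 rose relative to Stat5ca cells after transfer, where 13.8% of all genes fell and 7.03% rose. The median difference was -0.37, against -0.02 over all genes, and 36 of 38 differences were negative. For 27 members all 3 T-BetKO arrays were below all 4 Stat5ca arrays, which held for 19.9% of all genes. This comparison shares the Stat5ca arrays with the one against control cells. Stat5a fell in it as well (-0.75 ± 0.11, adjusted p = 0.00033), so the lower Stat5a level cannot be told apart from the genotype here. Of the 28 that rose against control cells, 18 fell and 10 were not called, and Npm1 and Nop10 fell without having risen. Genes picked for high values on the shared Stat5ca arrays are more likely to fall here. The same share among all genes that rose was not counted, so the 18 are not read as particular to the members.

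The box H/ACA proteins gave 3 of 4 calls. Dkc1 was at 9.48, 9.23 and 9.89 in T-BetKO Stat5ca cells, against 10.26 to 10.50 in Stat5ca cells (-0.88 ± 0.17, adjusted p = 0.002). Nhp2 was at 9.58, 9.55 and 9.34 in T-BetKO Stat5ca cells, against 9.92 to 10.19 in Stat5ca cells (-0.54 ± 0.13), and Nop10 differed by -0.32 ± 0.10. In both genes every T-BetKO array was below every Stat5ca array. The T-BetKO values of Dkc1 lay on both sides of the 9.51 and 9.56 of control cells after transfer, and those of Nhp2 lay above the 9.26 and 9.13 there.

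Of the nucleolar core 3 of 6 fell, namely Npm1 (-0.57 ± 0.18), Nolc1 (-0.48 ± 0.09) and Ncl (-0.32 ± 0.10). Polr1b fell (-0.38 ± 0.12), with 10.18, 10.02 and 10.41 in T-BetKO Stat5ca cells and 10.49 to 10.69 in Stat5ca cells. Of the box C/D proteins Nop58 (-0.56 ± 0.14) and Nop56 (-0.44 ± 0.11) fell. Fbl went the other way, with 11.29, 11.26 and 11.23 in T-BetKO Stat5ca cells, against 10.96 to 11.11 in Stat5ca cells (0.20 ± 0.08), and was not called (adjusted p = 0.0779). The second Fbl probe set averaged 10.64 in T-BetKO Stat5ca cells and 10.56 in Stat5ca cells.

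Small-subunit factors fell in 5 of 11 cases, led by Nat10, which was at 9.82, 9.80 and 10.27 in T-BetKO Stat5ca cells, against 10.66 to 10.80 in Stat5ca cells (-0.78 ± 0.12, adjusted p = 0.000609). Bms1 (-0.53 ± 0.14), Tsr1 (-0.48 ± 0.15), Wdr75 (-0.40 ± 0.12) and Utp15 (-0.37 ± 0.12) also fell. Large-subunit factors fell in 6 of 10 cases. Rrs1 was at 7.36, 7.16 and 7.26 in T-BetKO Stat5ca cells, against 7.93 to 8.40 in Stat5ca cells (-0.82 ± 0.14, adjusted p = 0.000908). As 2 of the 3 T-BetKO arrays were under background, it was at least 1.69-fold higher in Stat5ca cells counted from that level. Ebna1bp2 (-0.63 ± 0.12), Noc3l (-0.59 ± 0.16), Nop2 (-0.57 ± 0.11), Rrp1b (-0.53 ± 0.12) and Nop16 (-0.43 ± 0.10) were the others.

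The 3 T-BetKO arrays were not alike. Rrp1b was at 9.42 and 9.35 on the day 14 arrays 39 and 40, and at 10.02 on the day 54 array 41, where the Stat5ca arrays had 10.07 to 10.18. The myeloid genes averaged 12.26 and 12.19 on arrays 39 and 40, and 10.69 on array 41, near the 9.78 to 10.63 of Stat5ca cells. The T-cell identity genes averaged 11.75, 11.63 and 12.21 on arrays 39, 40 and 41, against 12.19 to 12.25 in Stat5ca cells, with a median difference of -0.43, and 5 of 11 fell and 1 rose. Of 9 B-cell genes, which averaged 7.68 to 8.24 on T-BetKO arrays and 7.44 to 7.56 on Stat5ca arrays, 4 rose. The part of these lists in the members' differences was not tested. Eif2s3y was at 9.24, 8.72 and 10.72 on arrays 39, 40 and 41, and Xist at 12.25, 12.26 and 6.48. On Stat5ca arrays 11, 12 and 14 Eif2s3y was at 5.0 to 5.16 and Xist at 12.67 to 12.73. On Stat5ca array 13 they were at 10.44 and 10.09. The part of sex was not tested in this comparison either. Averaged over the members array 41, the only array of day 54, stood at 10.14, against 10.34 to 10.44 on the Stat5ca arrays. With arrays 39 and 40 both left out, 3 members fell (Nop2, Nop16 and Rrs1) and the median difference was -0.22. With the myeloid level in the model the count was 11. It was 8 with the RNA integrity number, which was 6 to 8 in T-BetKO samples and 8 or 9 in Stat5ca samples. It was 8 without T-BetKO array 40, 13 without T-BetKO array 39 and 13 without Stat5ca array 12 or 14. Nop2, Nop16 and Rrs1 were called under all 18 settings tried.

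**Figure D4:**
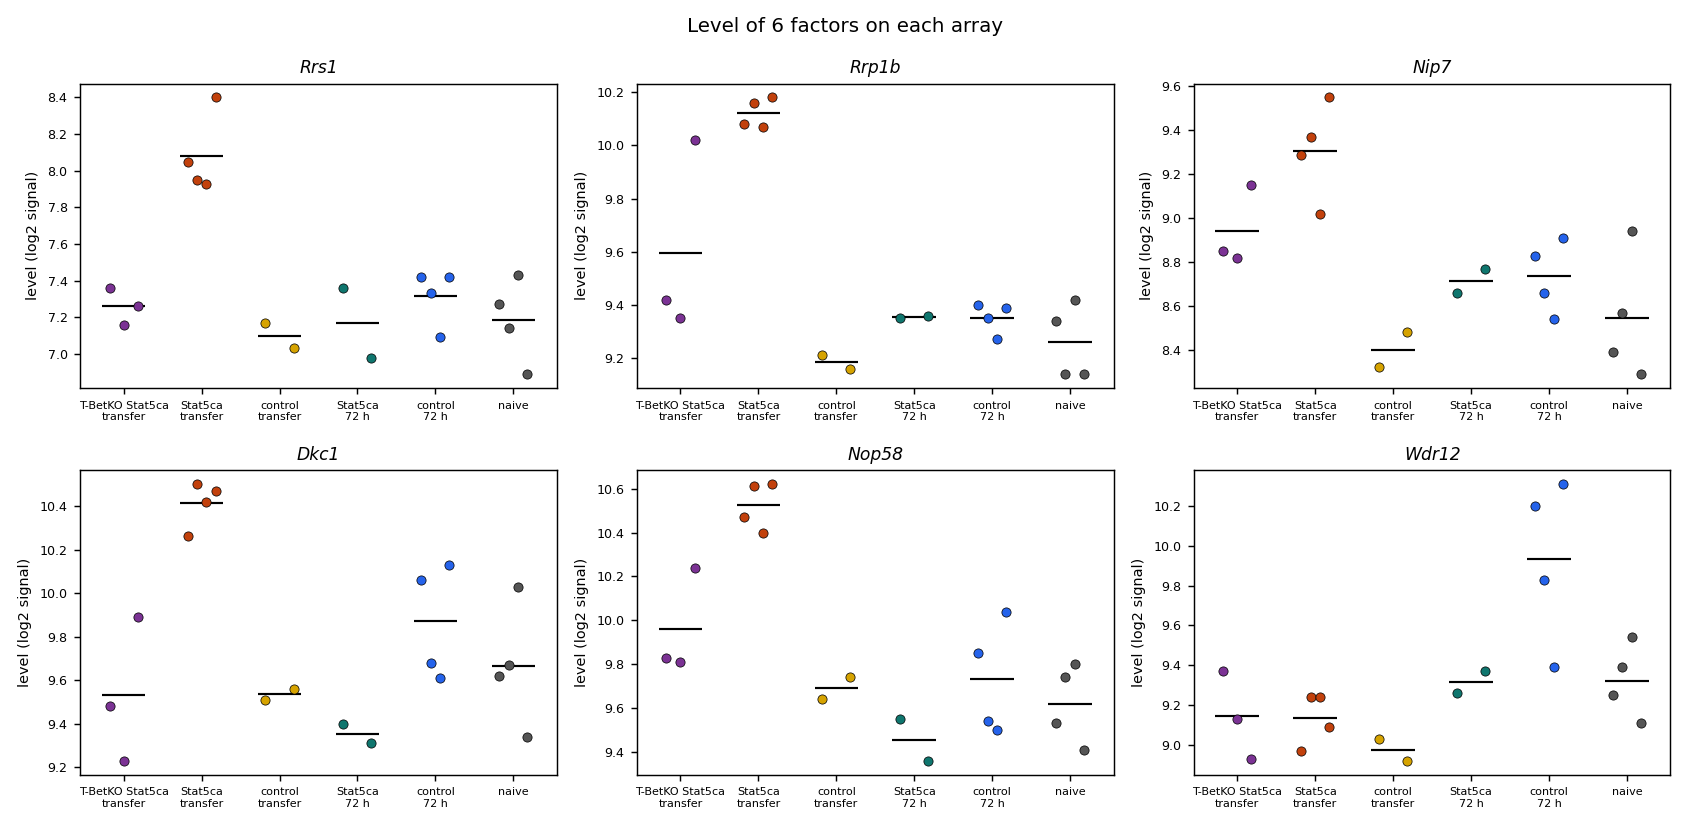
Level (log2 signal) of 6 factors on each array, with groups along the horizontal axis and a line at each group mean. Rrs1, Rrp1b, Nip7, Dkc1 and Nop58 are highest in Stat5ca cells after transfer, Rrp1b on T-BetKO array 41 lies at 10.02 close to the Stat5ca arrays, and Wdr12 is highest in control cells at 72 h.

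Stat5ca cells at the end of activation did not have these high levels. In Stat5ca cells after transfer 31 of 38 members rose and 0 fell relative to Stat5ca cells at 72 h (8.61% of all genes rose, 12.7% fell), with a median of 0.62 against -0.02 over all genes. For 35 members all arrays after transfer were above both arrays at 72 h, which held for 21.1% of all genes. All 11 small-subunit factors and all 4 box C/D proteins rose, with 9 of 10 large-subunit factors, 4 of 6 nucleolar core proteins, 2 of 3 polymerase I subunits and 1 of 4 box H/ACA proteins. Polr1b rose most, with levels of 10.49 to 10.69 after transfer against 9.48 and 9.21 at 72 h (1.24 ± 0.13, adjusted p = 1.46e-05). Utp20, a scaffold of the small-subunit precursor, was at 9.46 to 9.63 after transfer, against 8.54 and 8.35 at 72 h (1.14 ± 0.23), and was one of the 10 members not called against transferred control cells. Gnl3 and Nop58 each rose by 1.07, Dkc1 by 1.06 ± 0.17 and Tsr1 by 1.05 ± 0.17. Npm1 (-0.10 ± 0.17) and Wdr12 (-0.18 ± 0.20) had negative differences and were not called. Eif2s3y was at 10.73 and 9.29 on Stat5ca arrays 9 and 10 at 72 h. After transfer it was at 10.44 on array 13 and at 5.0 to 5.16 on the other Stat5ca arrays. The part of sex in these differences was not tested. Myeloid genes were higher after transfer in this pair, 14 of 20 having risen, and their part in the members' differences was not tested. With the myeloid level as a covariate 29 members rose, and without Stat5ca array 10 at 72 h the count was 18.

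Relative to naive cells, 26 of 38 members rose in Stat5ca cells after transfer and 0 fell (15.8% of all genes rose, 12.7% fell), with a median of 0.39 against -0.05 over all genes. All 6 nucleolar core proteins rose, Npm1 (0.85 ± 0.14) and Ncl (0.69 ± 0.09) most. Npm1 was at 11.89 to 12.32 in Stat5ca cells, against 11.46, 11.64, 11.18 and 10.89 in naive cells. Nop58 rose by 0.90 ± 0.12, Rrp1b by 0.86 ± 0.07, Nip7 by 0.76 ± 0.14 and Dkc1 by 0.75 ± 0.14. Rrs1 rose too and, with 3 of 4 naive arrays under background, was at least 1.68-fold higher counted from that level. For 23 members the 2 groups did not overlap, with the Stat5ca arrays above, which held for 15.2% of all genes. Utp20 ran the other way, at 9.46 to 9.63 in Stat5ca cells against 9.79 to 10.07 in naive cells, and was not called (-0.35 ± 0.19, adjusted p = 0.188). Naive arrays 34 and 36 carried myeloid levels of 11.80 and 11.64, against 8.10 and 8.99 on arrays 33 and 35. Without arrays 34 and 36, 15 members were called. In all, 21 members rose in Stat5ca cells after transfer against transferred control cells, naive cells and Stat5ca cells at 72 h. These comparisons share the Stat5ca arrays after transfer, so their calls are not independent. The share of all genes that rose in each of them was not counted.

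**Figure D5:**
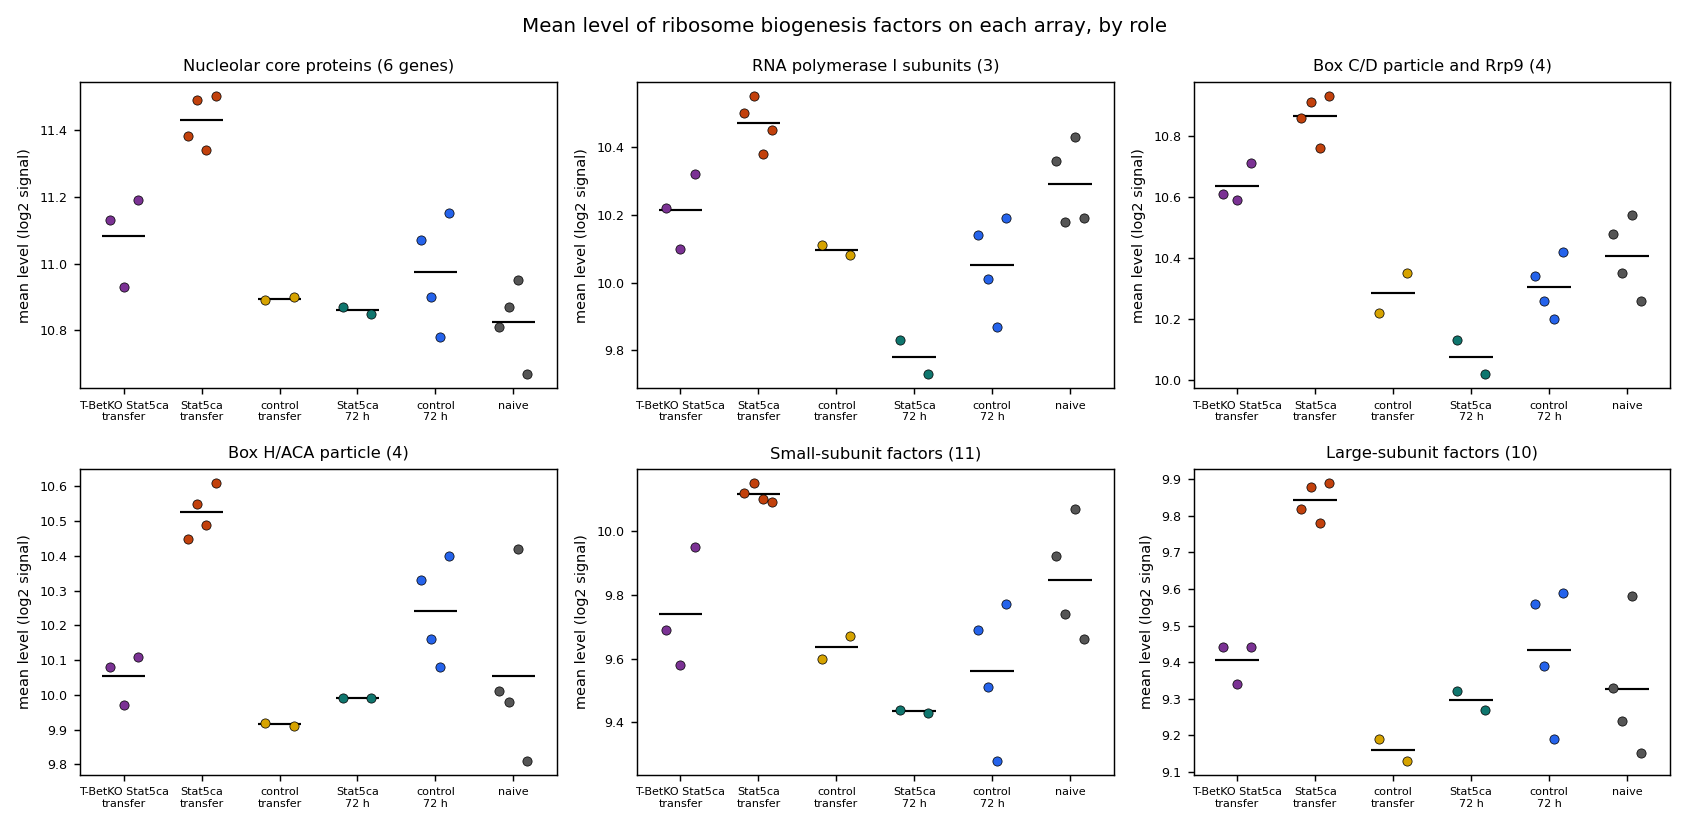
Mean log2 signal of the measured factors of each role on each array (points), with groups along the horizontal axis and a line at each group mean. The 6 panels show the 6 nucleolar core proteins, 3 polymerase I subunits, 4 box C/D proteins, 4 box H/ACA proteins, 11 small-subunit factors and 10 large-subunit factors, and Stat5ca cells after transfer have the highest mean in each.

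The effect of Stat5ca was therefore compared directly between the times, as the Stat5ca minus control difference after transfer minus the same difference at 72 h. For 27 of 38 members it was larger after transfer and for 0 it was smaller (12.3% of all genes larger, 5.48% smaller). The median over members was 0.75, against 0.01 over all genes. Dkc1 had the largest, with a Stat5ca effect of 0.88 after transfer and -0.52 at 72 h (1.40 ± 0.24, adjusted p = 0.00124). For Nop58 the effects were 0.83 after transfer and -0.28 at 72 h (1.11 ± 0.21). Rrs1 also passed, but its values were under background on both control arrays after transfer. At 72 h this was so on 1 of 2 Stat5ca arrays and 1 of 4 control arrays. No size is therefore read from Rrs1. All 4 box C/D proteins passed, Fbl included, whose effect was 0.19 after transfer and -0.48 at 72 h. The second Fbl probe set averaged 10.56 in Stat5ca and 10.30 in control cells after transfer. At 72 h it averaged 10.14 in Stat5ca and 10.45 in control cells. The count was 17 after quantile normalization, 17 without Stat5ca array 9 at 72 h, 16 without Stat5ca array 10 at 72 h and 17 without control array 30 after transfer.

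At 72 h itself, Stat5ca cells showed 0 of 38 members risen and 2 fallen relative to control cells (2.37% of all genes rose and 3.35% fell, 5.72% together). The 2 were Polr1c, at 10.61 and 10.50 in Stat5ca cells against 10.85 to 11.09 in control cells (-0.47 ± 0.10, adjusted p = 0.0118), and Fbl, at 10.36 and 10.39 in Stat5ca cells against 10.74 to 10.92 in control cells (-0.48 ± 0.09, adjusted p = 0.00841). The second Fbl probe set averaged 10.14 in Stat5ca cells and 10.45 in control cells. The share of members called, 5.26%, was close to the 5.72% of all genes. The median member difference was -0.13, against 0.04 over all genes, and 29 of 38 were negative. Larger but uncalled differences were those of Utp20 (-0.67 ± 0.23, adjusted p = 0.107), Wdr12 (-0.62 ± 0.20, adjusted p = 0.0814) and Dkc1 (-0.52 ± 0.17, adjusted p = 0.0911). Myeloid genes averaged 7.18 and 7.21 in Stat5ca cells at 72 h and 8.34 to 9.05 in control cells at 72 h, with 18 of 20 differences negative (median -1.07) and 3 of 20 fallen. With the myeloid level as a covariate 2 members were called. The control arrays at 72 h were spread. Wdr12 was at 10.20, 9.83, 9.39 and 10.31 on control arrays 1 to 4, and Utp20 at 9.54, 8.88, 8.47 and 9.59. Arrays 1 and 4 were the higher ones for both genes and averaged 10.04 and 10.11 over all members, against 9.88 and 9.72 on arrays 2 and 3. Eif2s3y was at 10.62 and 10.77 on arrays 1 and 4, and at 5.16 and 4.93 on arrays 2 and 3, and its part in this spread was not tested. The number called was 7 with Eif2s3y as a covariate, 4 with the RNA integrity number and 15 with array weights. Leaving out control array 3 gave 6, Stat5ca array 9 gave 1 and Stat5ca array 10 gave 0.

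Activation of control cells changed members in both directions. Of 38, 6 rose and 11 fell in control cells at 72 h relative to naive cells, in a comparison where 22% of all genes rose and 24.9% fell. The share called, 44.7%, was close to the 46.8% of all genes. Myeloid genes averaged 8.34 to 9.05 per array in control cells at 72 h and 8.10 to 11.80 in naive cells, all 20 differences were negative (median -1.12) and 9 of 20 fell. Of 9 B-cell genes 4 fell. With the myeloid level as a covariate Gnl3 and Nhp2 lost the call. The 6 that rose were Npm1 (1.01 ± 0.14), Wdr12 (0.61 ± 0.16), Ncl (0.56 ± 0.09), Polr1c (0.48 ± 0.08), Nhp2 (0.42 ± 0.12) and Nop16 (0.35 ± 0.09). Npm1 was at 12.26, 12.32, 12.15 and 12.49 in control cells at 72 h, against 10.89 to 11.64 in naive cells, with no overlap. Among those that fell were Utp20 (-0.81 ± 0.19), Polr1b (-0.64 ± 0.11), Tsr1 (-0.57 ± 0.14) and Polr1a (-0.55 ± 0.08). The polymerase I subunits thus split, Polr1c having risen and Polr1a and Polr1b having fallen. The others that fell were Nat10, Rrp12, Mybbp1a, Bop1, Gnl3, Wdr43 and Rrp9, by 0.35 to 0.48. The second, dimmer Wdr12 probe set averaged 8.48 in control cells at 72 h and 7.8 in naive cells.

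In control cells after transfer 0 of 38 members passed the limma test relative to naive cells, where 7.94% of all genes rose and 9.81% fell, 17.7% together, and 6 had an unadjusted p under 0.05. The median difference was -0.15, against -0.12 over all genes. Both control arrays were below every naive array for 10 members (30.1% of all genes) and above for Npm1 alone (12.1%). Npm1 had the largest difference (0.52 ± 0.17, adjusted p = 0.0519), at 11.85 and 11.76 in control cells after transfer against 10.89 to 11.64 in naive cells. Myeloid genes averaged 12.25 and 12.41 in control cells after transfer, above every naive array. Without naive arrays 34 and 36, which had the highest myeloid levels of their group, 1 member rose and 7 fell, and with the Eif2s3y level as a covariate 10 fell. The count was 2 after quantile normalization.

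Relative to control cells at 72 h, 5 of 38 members rose and 9 fell in control cells after transfer (13.1% of all genes rose, 24.4% fell). The share called, 36.8%, was close to the 37.5% of all genes. Wdr12 fell most, at 9.03 and 8.92 after transfer against 9.39 to 10.31 at 72 h (-0.95 ± 0.20). Polr1c (-0.67 ± 0.10), Nhp2 (-0.55 ± 0.15), Ebna1bp2 (-0.54 ± 0.13), Npm1 (-0.50 ± 0.17), Ncl (-0.46 ± 0.11), Bms1 (-0.41 ± 0.14), Nop16 (-0.40 ± 0.11) and Nolc1 (-0.31 ± 0.11) also fell. Polr1b (0.48 ± 0.13), Gnl3 (0.45 ± 0.14), Mybbp1a (0.43 ± 0.14), Rrp12 (0.38 ± 0.14) and Polr1a (0.32 ± 0.10) rose. Myeloid markers moved with this comparison, with 18 of 20 having risen. With the myeloid level as a covariate 6 members were called, and 6 or 4 were called without control array 30 or 32 after transfer. Both arrays after transfer were above all 4 arrays at 72 h for 6 members (20.2% of all genes) and below for 14 (31.9%). Polr1c and Wdr12 were called under all 16 settings.

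Other genes of the same pathway were counted from lists of 109 further factors, of which 107 were measured. Relative to control cells after transfer, 75 of 107 (70.1%) rose in Stat5ca cells after transfer and 0 fell, with a median of 0.49. Of all genes 16.9% rose and 8.46% fell. They included 31 of 41 small-subunit factors, 29 of 43 large-subunit factors, 5 of 12 polymerase I subunits and factors, and 10 of 11 proteins of the RNA exosome, the nuclease that trims precursor RNA. Riok1 (1.18 ± 0.17), Nifk (1.05 ± 0.18), Exosc3 (0.98 ± 0.12) and Polr1e (0.90 ± 0.12) each had the largest called difference of their list. Brix1 (1.0 ± 0.21) followed Nifk among the large-subunit factors. In T-BetKO Stat5ca cells 64 of the 107 (59.8%, against 13.8% of all genes) fell and 0 rose relative to Stat5ca cells. Dimt1 (-1.03 ± 0.15) and Nifk (-0.85 ± 0.15) led them. At 72 h the same list had 1 gene risen and 2 fallen in Stat5ca cells relative to control cells (2.8% together, against 5.72% of all genes).

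Ribosomal proteins, the products these factors assemble, had smaller median differences. Of 79 cytosolic ribosomal protein genes listed, 55 were measured. Relative to control cells after transfer, 18 of 55 (32.7%, against 16.9% of all genes) rose in Stat5ca cells after transfer and 0 fell. Their median was 0.17, against 0.55 for the biogenesis factors. In T-BetKO Stat5ca cells 26 of 55 fell relative to Stat5ca cells. This was 47.3%, near the 52.6% of the biogenesis factors and above the 13.8% of all genes. The median was -0.21, against -0.37 for the biogenesis factors. Many of these genes have near-identical pseudogene copies, with which a probe set may share signal.

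Myc was at 13.04, 12.98, 12.79 and 13.11 in Stat5ca cells after transfer, against 11.93 and 11.86 in control cells after transfer, and rose by 1.08 ± 0.16 (adjusted p = 0.000271). It was at 12.23, 12.12 and 12.5 in T-BetKO Stat5ca cells and had fallen relative to Stat5ca cells (-0.70 ± 0.14, adjusted p = 0.00299). At 72 h Myc was at 12.75 on both Stat5ca arrays, against 11.67 to 12.33 in control cells, and had also risen (0.78 ± 0.16, adjusted p = 0.0106). The part of Myc in the members' differences was not tested. The Stat5ca effect on Myc after transfer differed from that at 72 h by 0.31 ± 0.22 and was not called (adjusted p = 0.418). Relative to control cells after transfer, 3 of 9 genes of the Myc network rose (33.3%, against 16.9% of all genes). They were Myc, Mxd4 (0.70 ± 0.17) and Mxd3 (0.62 ± 0.14). Stat5a rose by 1.44 ± 0.13 after transfer and by 1.5 ± 0.13 at 72 h relative to the control cells of each time. In T-BetKO Stat5ca cells it had fallen relative to Stat5ca cells (-0.75 ± 0.11).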

How the data were processed

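Total RNA of purified CD8 T cells, 0.125 µg per array per the labels, was hybridised to 19 Affymetrix mouse arrays. The authors deposited 1 value for each of 35557 probe sets on each array, made with Affymetrix Expression Console per the submitters' processing notes, and of its version and settings nothing is given in the sources used here. The deposited values were taken as log2 signals from their range, 3.13 to 14.94, and were used as they stand, so levels depend on that summarization. Array medians lay between 7.69 and 7.89. The platform annotation gave 21789 probe sets 1 gene, 1621 several genes and 12147 none. The brightest single-gene probe set by mean over the 19 arrays stood for each of 19938 genes.

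Groups came from the labels. Models were fitted across all genes with limma 3.58.1 (lmFit and eBayes) in R 4.3.3, over the 16 TCRP1A arrays for 8 comparisons and all 19 arrays for T-BetKO Stat5ca cells. Calls required a Benjamini-Hochberg adjusted p under 0.05 over all genes. Differences are on the log2 scale with their standard errors. Precision is limited by how many arrays each group has. The fit was tested on simulated data. Tables were handled in pandas 2.3.3 (numpy 2.4.6, Python 3.11.15), and matplotlib 3.10.9 drew the plots.

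The members and the other gene lists were chosen with earlier results of these data known. All measured members were eligible to be named, with at most the 4 called genes of largest change from each other list per comparison, and Myc and Stat5a throughout. Alternatives changed the normalization, the probe set rule, the filter on dim genes, the spread model, array weights, covariates, the samples fitted and the arrays left out. The Eif2s3y covariate and the removal of both T-BetKO arrays 39 and 40 were chosen after seeing the data.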

Additional observations from a re-analysis of the deposited data

Results flagged for a closer look

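In groups of 4 arrays, 114 sets of values were examined for 1 array standing far from the other 3, and 3 were found, where chance gives about 1 in 20. Polr1c was lowest on control array 3 at 72 h, at 10.85. Nolc1 was lowest on Stat5ca array 13 after transfer, at 10.61. Utp20 was lowest on Stat5ca array 14 after transfer, at 9.46.

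The Stat5ca minus control difference was larger after transfer than at 72 h, by the limma interaction test at an adjusted p under 0.05, for 27 members. On the log2 scale the excess was 1.40 for Dkc1, 1.11 for Nop58 and 1.05 for Ebna1bp2. The measured value for Rrs1 was 1.12, which has no rank because some of its arrays were under background. These were both control arrays after transfer and, at 72 h, 1 of 2 Stat5ca arrays and 1 of 4 control arrays. The excess was 0.94 for Nhp2, 0.93 for Rrp1b, 0.92 for Nip7, 0.89 for Bms1 and 0.88 for Polr1c. It was 0.86 for Tsr1, 0.85 for Nolc1, 0.85 for Gar1, 0.83 for Pes1 and 0.81 for Nop16. Smaller values were 0.79 for Nop56, 0.78 for Noc3l, 0.76 for Polr1b, 0.74 for Ddx21, 0.74 for Wdr75, 0.72 for Heatr1 and 0.71 for Ncl. The remaining ones were 0.68 for Rrp9, 0.67 for Fbl, 0.62 for Nat10, 0.61 for Gnl3, 0.58 for Utp15 and 0.56 for Wdr43. Of the 27, 14 were called under all 22 alternatives tried.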

How the results depend on the processing

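Of 6042 recomputed member differences, 5271 kept their direction and side of the threshold, 397 lost the call, 188 gained one and 186 changed sign. None of the 186 was called in either setting. No paired analysis was possible because every array carries its own number, shared with no array of another group. Counts of called members that moved by over 1.5 times are given here, and the cause was not tested. In T-BetKO Stat5ca against Stat5ca cells after transfer (20 called), the count was 8 with the RNA integrity number, 11 with the myeloid level, 3 without both arrays 39 and 40, and 8 to 24 with 1 array left out. In Stat5ca against control cells after transfer (28 called), leaving out 1 array gave 18 to 27. In Stat5ca cells after transfer against those at 72 h (31 called), it gave 18 to 29. In Stat5ca cells after transfer against naive cells (26 called), the count was 15 without naive arrays 34 and 36, and 19 to 31 with 1 array left out. The interaction (27 called) gave 17 after quantile normalization and 16 to 31 with 1 array left out. In Stat5ca against control cells at 72 h (2 called), the count was 15 with array weights, 4 with the RNA integrity number, 7 with the Eif2s3y level and 0 to 6 with 1 array left out. In control cells after transfer against naive cells (0 called by limma, 6 at an unadjusted p under 0.05), it was 2 after quantile normalization, 1 without dim genes, 1 with a trended spread, 1 with array weights, 8 without naive arrays 34 and 36, 10 with the Eif2s3y level and 0 to 1 with 1 array left out. In control cells after transfer against those at 72 h (14 called), it was 6 with the myeloid level and 4 to 13 with 1 array left out. In control cells at 72 h against naive cells (17 called), leaving out 1 array gave 16 to 20. Where leaving out an array left a group with 1 array, that array was assumed to vary like the other groups. Signal over background limits Rrs1.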
